A study of Mus musculus and Rattus norvegicus with 26 samples.

Results

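Genes that carried intron sequence in the dendrites of mouse and of rat hippocampal neurons were compared, first by gene and then by intron number. A gene was counted as shared when the same symbol stood in the mouse and in the rat dendrite list of CIRTs, and an intron when it also had the same number. Of 10329 genes in either dendrite list, 2763 (26.7%) were in both, 5844 were in the mouse list only and 1722 in the rat list only, and 11648 genes were in any dendrite or soma list of these neurons. The shared genes held 1471 introns with the same number in both species, which is 29.8% of their 4931 listed rat introns and 20.1% of their 7326 listed mouse introns. The mouse dendrites came from C57BL/6 and the rat dendrites from Sprague-Dawley hippocampus, in each case from animals of embryonic day 18. They were cut by hand from neurons that had first been grown in culture. The embryonic day is thus the age at harvest of the hippocampus and not at the cut. Their RNA was amplified as aRNA, labelled 3x, and the authors pooled 3 mouse and 2 rat libraries into a single list per species. Soma lists from 3 mouse and 3 rat libraries were used for comparison, and the series holds 26 libraries in all. Each list gives contigs, which are stretches of intron covered by clustered reads, with a raw read count per intron.

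Introns are normally removed in the nucleus, and a transcript that reaches a dendrite with intron sequence has kept part of it through export. Dendrites hold ribosomes, motor proteins and RNA granules, so that transcripts can be carried there and translated near synapses. Mouse and rat share most of their genes and most positions of introns within them, while the sequence inside introns has drifted much more than that of exons.

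The mouse list was the deeper of the pair. It held 26445 contigs in 19477 introns of 8953 RefSeq transcripts (8607 genes) with 3086576 reads, against 8459 contigs in 7426 introns of 4499 transcripts (4485 genes) with 1007530 reads in rat. The median was 24.0 reads per listed intron in mouse and 14 in rat. Since the libraries are pooled, there is a single value per species and no replicate, so that no test between species was made and depth and species cannot be told apart. Intervals are 95% Wilson intervals unless stated. They cover counting error only, because amplified reads are not independent molecules. The lists hold only introns with reads that passed the filters of the authors. These took out introns that overlapped a gene prediction, a known poly(A) site or an annotated noncoding RNA. Introns with reads only at exon-intron junctions were taken out too. A gene or intron missing from a list may thus have had reads and is called not listed.

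Markers of neurons and of other cells were read from the same lists, where they show intron sequence and not the level of the mRNA. Of 12 neuron markers, 3 were listed in both species, 3 in mouse only and 6 in neither, with 1231 mouse and 1487 rat reads in sum. The most-read was Rbfox1 in rat, a splicing factor gene of neurons listed there as A2bp1, with 1072 reads, and Camk2a in mouse, a kinase gene of the postsynapse, with 515. Stmn2 and Syt1, a tubulin-binding protein of growing neurites and the calcium sensor of synaptic vesicles, were in both lists, and both had intron 4 in common. The defining markers Map2, Rbfox3, Tubb3, Nefl, Nefm and Celf4 were not listed in either species.

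Astrocyte markers had 1 of 8 genes in both lists, 3 in mouse only and 1 in rat only, with 2983 mouse and 78 rat reads. The gene in both was Slc1a3, with 150 mouse and 69 rat reads, and it shared intron 9 (118 and 29 reads). Of the mouse reads, 2826 came from intron 16 of Aldh1l1, a folate enzyme of astrocytes. Gfap and Aqp4 had 5 and 2 mouse reads, and Slc1a2, Gja1 and Aldoc were not listed. Oligodendrocyte markers had 0 of 8 genes in both lists, with 72 mouse reads, mostly in Pdgfra (66 reads), and 139 rat reads in Mog. Mbp had 2 mouse reads, and Mag, Olig1, Olig2 and Sox10 were not listed. Microglia markers had 1 of 8 genes in both lists, Itgam, an integrin subunit of myeloid cells, which took 838 of 1055 mouse reads and the 701 rat reads. Aif1, Cx3cr1, P2ry12, Tmem119 and Cd68 were not listed. Endothelial markers had 2 of 6 genes in both lists, with 1973 mouse and 252 rat reads. These were the VEGF receptor gene Flt1 (1367 and 228 reads) and the angiopoietin receptor gene Tek (582 and 24 reads), while Pecam1 and Cldn5 were not listed. In mouse the astrocyte and endothelial lists thus had more intron reads than the neuron list, and in rat the lists of other cells each had fewer. Their part in the results was not tested.

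The first question was how far the dendrites of both species list the same genes. The 2763 shared genes made up 32.1% of the mouse list (interval 31.1 to 33.1) and 61.6% of the rat list (interval 60.2 to 63.0). Placeholder symbols, such as those of unnamed cDNA clones or predicted loci, made up 563 of the mouse-only and 252 of the rat-only genes, but a single shared gene. Without them, 2762 of 9513 genes (29.0%) were shared, 34.3% of the mouse and 65.3% of the rat genes. Among genes whose symbol stood in some list of each species, dendrite or soma, 80.7% of 3425 mouse genes and 90.4% of 3055 rat genes were in both dendrite lists, a set that the sharing itself helps to choose. The soma lists overlapped in 1775 genes, 30.1% of the mouse and 52.3% of the rat soma genes. With at least 32 reads per intron in both lists, 1009 genes were shared, and with the mouse list reduced to its most-read introns, as many as in rat, 1652 were.

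Genes listed in both species carried more listed introns than genes listed in a single species. A shared gene had a mean of 2.65 listed introns in mouse against 2.07 for a mouse-only gene, and 1.78 in rat against 1.45 for a rat-only gene. A single listed intron was found in 38.1% of the shared and 52.3% of the mouse-only genes, and in 56.3% and 70.9% of the rat genes. The most-read intron of a gene had a median of 82.0 mouse reads in shared and 58.0 in mouse-only genes, and of 37.0 and 20 rat reads. Shared genes were also larger in the mouse annotation, with medians of 13 introns, a span of 47.9 kb and a longest intron of 12.9 kb, against 10 introns, 34.8 kb and 10.4 kb in mouse-only genes.

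The share of genes found in the other species rose with the number of listed introns. It was 25.6% for mouse genes with a single listed intron, 32.6% with 2, 38.0% with 3, 42.8% with 4 to 5 and 51.3% with 6 to 9, but 45.4% (interval 35.8 to 55.3) for the 97 genes with 10 or more. For rat genes the shares were 56.0%, 67.3%, 72.1%, 79.1% and 85.2% up to 6 to 9 introns. By the reads of the most-read intron, the share went from 25.9% of mouse genes with 2 to 3 reads to 37.7% of those with 256 or more, and from 54.1% to 68.6% of rat genes. By gene span, it went from 25.3% of mouse genes under 10 kb to 41.2% of those above 300 kb. The plot of shared genes by listed introns and by reads shows these steps.

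**Figure D1:**
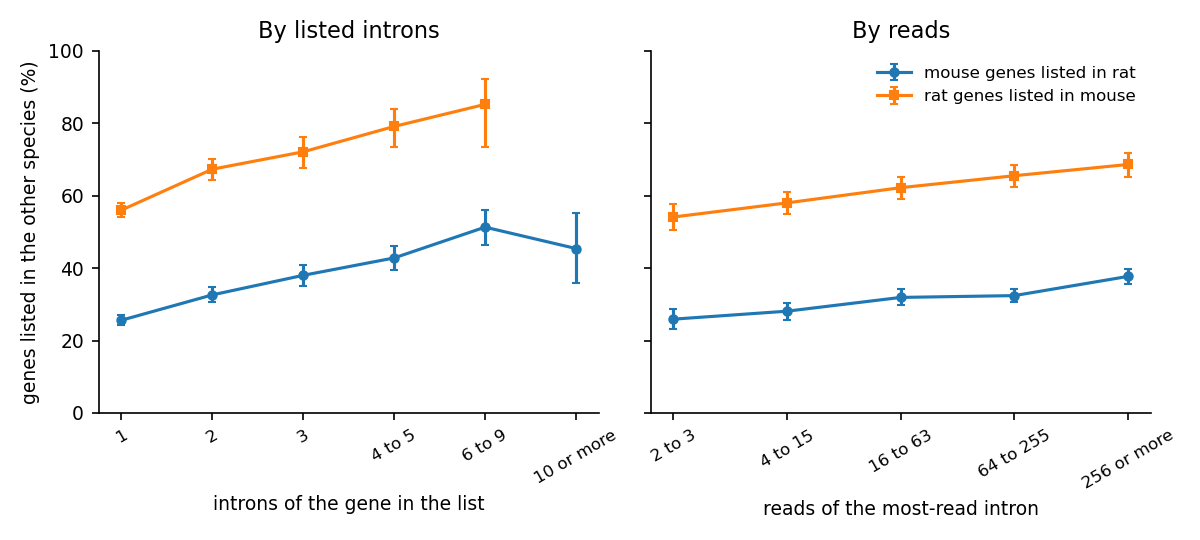
Share of the genes of each species that were also listed in the other species (%), by the number of introns listed for the gene and by the reads of its most-read intron; bars are 95% Wilson intervals and bins with fewer than 20 genes are left out. Mouse genes go from 25.6% with a single listed intron to 51.3% with 6 to 9, and rat genes from 56.0% to 85.2%.

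Some large genes with many listed introns were nevertheless in a single dendrite list. Dmd, which encodes dystrophin, had 29 listed introns in mouse dendrites, with at most 1673 reads in any of them, and was not listed in rat dendrites, although it was in the soma lists of both species. Syne1, which encodes the nuclear envelope protein nesprin-1, had 19 with at most 3903 reads. Gpr98, an adhesion receptor gene, also had 19, and Csmd3, which encodes a large membrane protein, had 18. Syne1, Gpr98 and Csmd3 were listed in mouse somas but not in rat somas. In the rat list only, Hbp1, a transcription factor gene, had 8 listed introns with at most 224 reads, and Nell1, a gene of a secreted protein, had 7 with at most 1075. The ubiquitin ligase gene Itch, the tomosyn gene Stxbp5 and the gene of the microtubule adaptor Hook2 had 6 each. Itch and Hook2 were in neither soma list, whereas Stxbp5 was in the soma lists of both species. Dmd and Csmd3 span 2257 and 1211 kb in mouse. A gene missing from a dendrite list was thus in some cases listed in the somas of the same species.

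The second question was whether a shared gene lists the same introns. Intron numbers count from the 5′ end of the transcript in both lists, as all 10524 neighbouring listed introns of mouse and 2927 of rat lay in that order. At least 1 number was shared in 1204 of the 2763 genes (43.6%, interval 41.7 to 45.4), 206 genes shared 2 or more, and 1559 shared none. Of 714 genes with a single listed intron in each species, 189 (26.5%, interval 23.4 to 29.8) had it under the same number, and 217 genes (7.85%) had identical sets of numbers. The count of 1471 shared introns fell to 962 with at least 4 reads in both lists and to 309 with at least 32. It fell to 789 with contigs of at most 400 nt and to 593 with the mouse list reduced to the size of the rat list, and rose to 2722 when numbers differing by 1 were also accepted.

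Dcc, which encodes the netrin-1 receptor of growing axons and dendrites, shared the most numbers. Its introns 5, 7, 8, 12, 14, 15 and 27 were in both lists, 7 of its 8 listed rat introns and of its 15 listed mouse introns. Intron 5 had 172 mouse and 3398 rat reads, intron 15 had 148 and 269, and intron 12 had 28 and 2. Flt1, a receptor gene for VEGF, shared introns 1, 11, 12, 14 and 18, with 231 mouse and 6 rat reads in intron 14. Stag1, which encodes a cohesin subunit, shared 4 of 7 rat introns, with 78 and 1062 reads in intron 4. Etfa, the alpha subunit of the electron transfer flavoprotein, listed 4 introns in rat, 8 to 11, and all 4 were listed in mouse too. Its most-read intron differed, with 2566 mouse and 49 rat reads in intron 9 against 23 and 382 in intron 11. Nvl, a nuclear ATPase gene, shared introns 11, 12, 18 and 19 of its 5 listed rat introns. In Dcc too the most-read shared intron differed, since intron 7 led in mouse with 239 reads and had 10 in rat.

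Other genes listed many introns in both species and shared no number. Thada had 7 mouse and 6 rat introns, among them 19, 22 and 23 in mouse and 18, 21 and 24 in rat. Eprs, which encodes a tRNA synthetase, had 6 in each species. Ptk2, the gene of focal adhesion kinase, had 8 and 5, and Plce1, a phospholipase C gene, had 6 and 5. Rims2, which encodes a scaffold of the presynaptic active zone, listed introns 5, 6, 7, 15 and 23 in mouse and 2, 3, 4, 14 and 24 in rat. In each of these 5 genes, some of the listed introns were direct neighbours of those of the other species.

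Against other offsets of the number, equality stood out. Of the listed rat introns, 29.8% (interval 28.6 to 31.1) had a listed mouse intron of the same number, 22.0% (interval 20.8 to 23.2) one that was lower by 1 and 20.6% (interval 19.5 to 21.8) one that was higher by 1. At an offset of 3 the shares were 18.5% for lower and 13.3% for higher numbers, and at 6 they were 18.8% and 7.67%, with rat introns near the 5′ end left out where no lower number exists. Last introns, which have no higher number, were not left out. Counts were also compared, where an intron 1 adds to equality but has no lower number to match, which raises the ratio. The 1471 introns at equality were 1.47 times the mean of the counts at the offsets of 1. The soma lists of the 2 species gave 1.63 times, the mouse dendrite and soma lists 2.74 times, and the rat dendrite and soma lists 2.80 times. Numbers were thus shared less sharply between species than between dendrites and somas of the same species. The plot of shares by offset gives both comparisons between species.

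**Figure D2:**
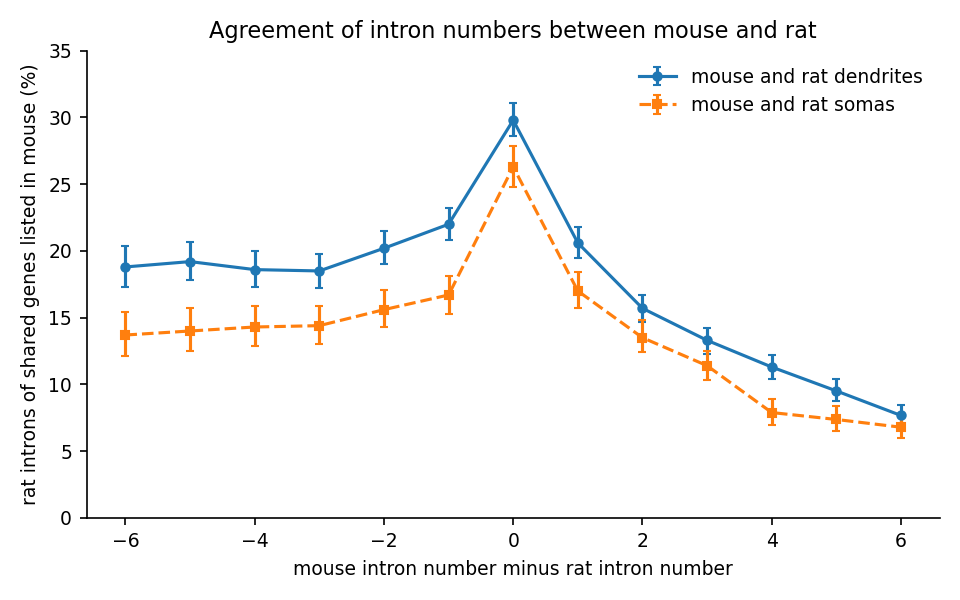
Share of the listed rat introns of shared genes (%) for which mouse listed an intron at the given offset (mouse number minus rat number), for dendrites and for somas; bars are 95% Wilson intervals. The share at equal numbers is 29.8% in dendrites and 26.3% in somas, and in dendrites it is 22.0% and 20.6% at an offset of 1 to either side.

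A number can mean another intron where the RefSeq models of the species differ, so the spacing of shared introns along the genome was compared. Between neighbouring shared introns of a gene, the distance between contigs in rat was within 1.5-fold of that in mouse in 192 of 267 pairs (71.9%, interval 66.2 to 77.0). With numbers offset by 1 it was so in 58.3% of 156 and 55.4% of 166 pairs, with a mouse number lower or higher by 2 in 48.1% of 129 and 49.6% of 119, and by 3 in 47.8% of 90 and 39.6% of 96. Equal numbers thus marked like positions more often than unequal ones, though not in each pair.

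A shuffle within genes gives the number of equal introns when each gene keeps its counts of listed introns but any of its introns may hold them. It was computed as the exact mean over all arrangements, with the number of introns taken from the mouse annotation, for 2678 of the shared genes with 41172 introns. Where several annotated transcripts of a gene matched, one with the most introns was taken, and more introns lower the mean. Of these introns, 17.2% were listed in mouse and 11.5% in rat. Equal numbers were observed for 1435 introns against a shuffle mean of 1004, a ratio of 1.43 (interval 1.37 to 1.49), or 30.2% against 21.2% of the rat introns. With the highest listed number as the number of introns, the fewest a gene can have, the ratio was 1.13. By the number of introns in the gene, the ratio was 1.21 with up to 3 introns, 1.36 with 4 to 7, 1.44 with 8 to 12, 1.43 with 13 to 20 and 1.55 with 21 or more. With introns weighted by their length, the ratios of these classes were 1.16, 1.12, 1.04, 0.980 and 1.05, with no rise toward larger genes.

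The ratio depended on how intron length was treated. When each intron was made as likely as it is long in mouse, the shuffle mean rose to 1365 and the ratio was 1.05. With introns weighted by the rat share of their length class, an alternative chosen after seeing the data, the mean was 1151 and the ratio 1.25. Apart from length, a shift of the rat number by 1 to either side gave a ratio of 0.963 to the unshifted mean of 1004. Introns shifted out of their gene can match nothing, which lowers that value. The excess of equal numbers thus ranged from small to moderate with the weight chosen for length.

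Within classes of mouse intron length, mouse-listed introns were more often listed in rat than introns of the same genes that mouse did not list. The shares were 33.6% against 6.06% for introns below 300 nt, 5.54 times, and 19.4% against 6.93% from 300 to 1000 nt. They were 15.7% against 8.69% from 1000 to 3000 nt and 19.8% against 14.2% from 3000 to 10000 nt. Above that they were 24.6% against 17.1% up to 30000 nt, 29.9% against 20.2% up to 100000 nt and 36.6% against 15.9% in longer introns. Over all lengths, 20.3% of 7084 mouse-listed and 9.71% of 34088 unlisted introns were listed in rat. At the shares of unlisted introns of the same length class, 898 of the mouse-listed introns would be listed in rat, and the 1435 observed were 1.60 times as many. These shares pool introns over genes and leave the mouse-listed introns out of the reference. The ratio of 1.25 given above differs in both ways. It uses the rat shares of all introns of a length class and applies them within each gene. The plot of rat shares by length class shows the widest gap in the shortest introns, a class with 134 mouse-listed members.

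**Figure D3:**
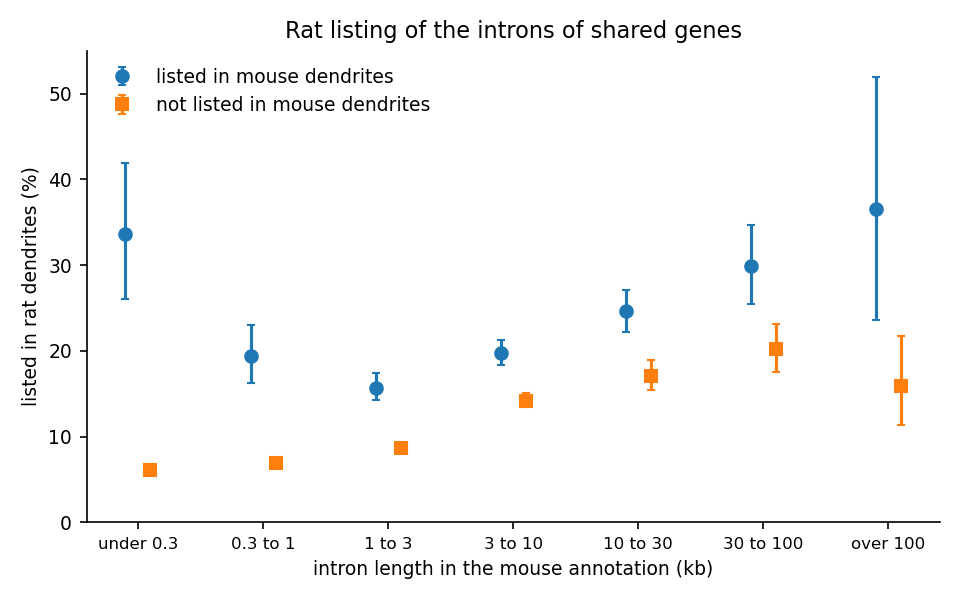
Share of introns listed in rat dendrites (%) among introns listed and not listed in mouse dendrites, by length of the mouse intron in kb, for genes in both lists; bars are 95% Wilson intervals. The share is 33.6% against 6.06% below 300 nt and 19.8% against 14.2% from 3000 to 10000 nt.

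Shared introns were long. They also came more often from genes with few introns, where the first and last introns are a larger part of all, and this was not separated from the positions given here. The median mouse length was 5149 nt for introns listed in both species, 3860 nt in mouse only, 2379 nt in rat only and 1404 nt in neither. A tract of at least 10 A was found in 52.1%, 46.9%, 31.0% and 19.8% of them, but within length classes the order varied. The shares were 53.6%, 51.4%, 40.2% and 36.0% from 3000 to 10000 nt, and 4.85%, 15.7%, 6.67% and 4.58% from 300 to 1000 nt. In genes with at least 5 introns, 61.7% of the shared introns lay on the 5′ side of the transcript, against 57.2% of the mouse-only, 51.6% of the rat-only and 50.1% of the unlisted introns. Intron 1 made up 13.2% of the shared, 6.05% of the mouse-only, 7.95% of the rat-only and 6.12% of the unlisted introns, and the last intron made up 11.3%, 5.58%, 7.43% and 6.35%. By number, 41.4% of the listed rat introns 1 and 42.3% of introns 2 were shared, falling to 32.1% at 4 to 5, 22.6% at 10 to 19 and 18.7% at 20 or more. By reads, the shared part varied less, between 27.5% and 37.7% of the rat introns over the classes from 2 to 3 reads up to 1024 or more.

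The third question was whether shared introns carried like numbers of reads. The intron with the largest smaller-of-the-pair count was intron 3 of Slc25a4 (NM_007450, chr8:47292975-47293750 of NCBIM37, minus strand), which encodes the ADP/ATP carrier of mitochondria, with 2693 mouse and 1847 rat reads. Its mouse contig of 776 nt covered 99.9% of the intron and touched an exon on the same strand. The end positions in the lists may be off by 1 nt, which bears on such coverage and on all contacts with exons. Next came intron 9 of Nln, a peptidase gene, with 1337 and 1525 reads, and intron 8 of Spag9, a scaffold for JNK signalling and motors, with 1242 and 786. Intron 4 of Rexo2, which encodes an oligoribonuclease of mitochondria, had 690 and 2132 reads, and its mouse contig covered 73.3% of the intron. Both species thus read each of these 4 introns often.

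The other introns of the first 10 ranged from nearly equal to very unequal counts. Intron 5 of Commd10 had 1596 mouse and 661 rat reads, intron 7 of Ntng1, which encodes the adhesion protein netrin-G1, had 756 and 557, and intron 4 of the phosphatase gene Cdc14b had 4256 and 543. Intron 2 of Asrgl1, an asparaginase gene, had 535 and 508 reads and intron 6 of Cdc37l1, a relative of an Hsp90 cochaperone, had 668 and 465. Intron 22 of Acap2, which encodes a GTPase-activating protein of Arf6, had 456 and 1500. At least 256 reads in both species were found for 23 of the 1471 introns, at least 32 for 309 and at least 4 for 962.

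Across all shared introns the counts were hardly related. Spearman's rho between mouse and rat reads was 0.0398 over 1471 introns, which share their libraries within each species and are not replicates. It was 0.0801 over those with at least 4 reads in both lists and -0.0633 over those with at least 32. The counts were within a factor of 2 in 284 introns (19.3%), while mouse had at least 8 times the rat count in 383 (26.0%) and rat at least 8 times the mouse count in 286 (19.4%). Within a species, rho between dendrite and soma reads of shared introns was -0.0218 in mouse (5067 introns) and 0.237 in rat (1850 introns). The most-read intron of a gene was the same in both species in 473 of the 2763 genes (17.1%). Of the 2763, however, 1559 shared no number and could not match. The 189 with a single listed intron in each species under the same number had to match. Among the shared introns of the 206 genes with 2 or more shared numbers, the same intron led in 96 (46.6%). Where exactly 2 were shared, the same of them had more reads in 79 of 158 genes (50.0%). The number of listed introns per gene was more alike, with a rho of 0.262 over 2763 genes. The plot of mouse against rat reads shows the spread.

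**Figure D4:**
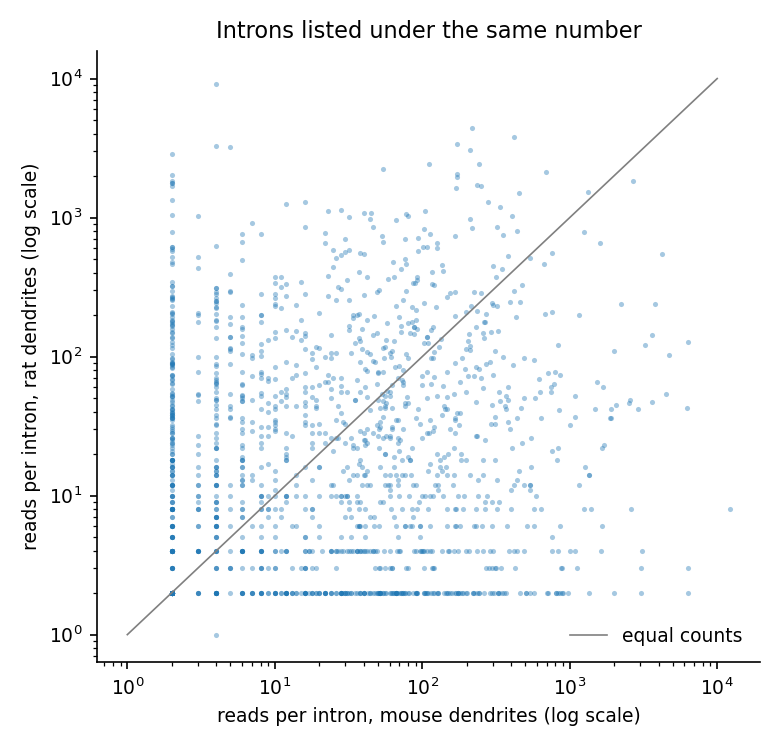
Reads in mouse dendrites against reads in rat dendrites for the 1471 introns with the same number in both lists, on log axes, each point an intron and the line equal counts. Spearman's rho is 0.0398, and 284 introns have counts within a factor of 2.

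The most-read introns of either list were not shared. In mouse these were intron 3 of Zbtb49, a zinc finger gene, with 37928 reads, and intron 8 of Haus6, which encodes a subunit of the microtubule-nucleating augmin complex, with 22090, and both genes were not listed in rat dendrites. Intron 3 of Alkbh8, a tRNA-modifying enzyme gene, had 15615 mouse reads, while rat listed introns 9 and 10 with at most 6 reads. In rat, intron 17 of RGD1311678 had 71641 reads under a symbol that mouse does not use. Intron 4 of Sipa1l3, a gene of a Rap GTPase-activating protein, had 25042 reads, and mouse listed introns 8, 9, 13, 16 and 20 with at most 495. Intron 18 of Arhgef7, which encodes a Rac and Cdc42 exchange factor, had 14574 reads, and mouse listed introns 11, 12, 16 and 19 with at most 118. The 3 largest counts of each species thus had no counterpart under the same number.

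10 genes taken from the text, drawings and supplements of the study were looked up in both lists, and 8 were listed in both. All 10 were in the rat list, where 61.6% of all genes were also in the mouse list. The study names several of them for its rat samples, so this is no independent count. Htt, the huntingtin gene, shared introns 12 (100 mouse and 72 rat reads) and 19 (2 and 3 reads), but its most-read intron was 28 in rat with 2329 reads, which mouse did not list. Reln, which encodes reelin, a secreted guide of neuron migration and dendrite growth, listed 18 introns in mouse and 4 in rat. It shared introns 22 (31 and 2 reads) and 42 (8 and 2 reads), while intron 8 had 2889 reads in mouse and intron 4 had 2072 in rat. Rbm5, a splicing regulator gene, shared intron 4 with 407 mouse and 1034 rat reads, and Yrdc, a tRNA modification gene, shared intron 3 with 4 mouse and 89 rat reads.

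4 genes were listed in both species with no number in common. Kcnma1, the pore-forming subunit of the BK potassium channel, listed introns 15, 16, 23 and 27 in mouse, with 1163 reads in intron 16, and intron 3 in rat with 5 reads. Atl1, which encodes the membrane-shaping GTPase atlastin-1, had intron 5 with 8 reads in mouse and intron 10 with 711 in rat. Atxn10, the ataxin-10 gene, had 732 reads in mouse intron 3 and 970 in rat intron 9. H13, a signal peptide peptidase gene, had 22 reads in mouse intron 1 and 2095 in rat intron 8. Sfrs11 and Rps24 were listed in rat only, with 45 reads in intron 5 and 1044 in intron 4. Sfrs11 is an older symbol of the splicing factor gene Srsf11, which mouse lists with intron 5 as well. Reln and Atxn10 thus had their highest counts in different introns of the species, and Rbm5 in the same one.

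The contigs listed for shared introns had a median length of 255 nt over 2216 mouse contigs and of 294 nt over 1758 rat contigs, so mouse minus rat was -39.0 nt. Contigs are not replicates, and this difference is a description of a single list per species. The difference was -95.5 nt in introns with at least 32 reads in both lists and -16.5 nt between means. Shared introns held a single contig in 73.8% of cases in mouse and in 85.7% in rat. The longest contigs of an intron were hardly alike in length, with a rho of 0.103 over 1471 introns. Mouse contigs of shared introns spanned the whole intron, within 5 nt of both ends, in 48 of 2190 cases (2.19%, interval 1.66 to 2.89), against 0.556% in the other introns of the same genes and 0.464% in mouse-only genes. They touched an exon on the same strand in 5.80% against 4.26% and 4.29%, and had an A tract within 300 nt downstream in 6.39% against 8.16% and 7.94%. Their median GC content was 40.5%, against 40.5% and 41.0%.

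Gene lists were counted with genes joined under an older symbol where a list gives one. With older symbols joined over all listed genes, an alternative chosen after seeing the data, 2851 of 10238 (27.8%) were in both species, against 26.7% by identical symbols. The lists were chosen with earlier results known, and their genes differ in length, so their shares are a description. Among receptors of glutamate, 5 of 10 listed AMPA, kainate and delta receptor genes and 3 of 6 listed NMDA receptor genes were in both species, and 2 of 6 metabotropic ones. Gria3, an AMPA receptor subunit, shared introns 10 and 12, and Grin1, the obligatory NMDA receptor subunit, shared introns 4 and 8 with at most 11 reads. Grin2a, Grin2b and Grin3a were in the mouse list only, and Grm8 in the rat list only. Of the genes for GABA signalling, 4 of 15 were in both, among them Gabbr1, a GABA-B receptor subunit gene with intron 14 shared.

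Among channels, 8 of 14 listed calcium channel genes, 7 of 15 potassium channel genes and 2 of 8 sodium channel genes were in both species. Cacna1e and Cacna1b, pore subunits of R-type and N-type calcium channels, both shared intron 3. Kcnj3, an inward rectifier gene, has 2 introns and shared both, with 2011 mouse reads at most and 109 rat reads at most. Nalcn, a sodium leak channel gene, shared intron 27, and Scn8a, a voltage-gated sodium channel gene, shared none. Of the genes for release and clearance of calcium inside the cell, 5 of 12 were in both, among them the IP3 receptor gene Itpr1 with introns 13 and 42 shared. Calcium channels had 11467 mouse and 542 rat reads, potassium channels 13746 and 2650, and sodium channels 1349 and 1309, where the whole lists had 3086576 and 1007530.

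At the synapse, 9 of 21 listed genes of postsynaptic scaffolds and kinases and 6 of 16 of the presynaptic active zone were in both species. Dlg1, a scaffold gene of the PSD-95 family, shared introns 13, 15 and 20, and Dlg2 of the same family had 10 mouse introns and shared none. Pclo, which encodes the active zone protein piccolo, shared introns 2, 8 and 22, and Cask shared introns 1 and 2. Neurexins, neuroligins and contactins had 9 of 14 listed genes in both, with 11 of 33 rat introns under the same number. Nlgn1, a postsynaptic adhesion gene, shared intron 4. Adhesion genes of the synapse thus came close to the 29.8% of rat introns shared over all genes, with 33.3% (interval 19.8 to 50.4).

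Motors of the kinesin, dynein and myosin families had 16 of 23 listed genes in both species (69.6%, interval 49.1 to 84.4), against 27.8% over all listed genes. The other 7 were in mouse only and 0 in rat only. Of their rat introns, 20 of 52 (38.5%, interval 26.5 to 52.0) had the same number, against 29.8% over all shared genes. Motor genes were long, with a median mouse span of 150 kb. Over all mouse-listed genes of 100 to 300 kb, 39.4% were listed in rat. The part of length was not tested. Myo9a, a myosin gene with a RhoGAP domain, shared introns 4, 6, 16 and 25, and Kif5c, a kinesin-1 heavy chain gene of neurons, shared introns 7, 8 and 9. Dync2h1, a heavy chain gene of the dynein of cilia, had 933 mouse and 1609 rat reads in its most-read introns and shared intron 83. Of the genes of dendritic cytoskeleton and ankyrins, 6 of 16 were in both, with 4 of 19 rat introns shared, 2 of them in the crosslinker gene Macf1 (introns 62 and 89).

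The list of RNA granule proteins and translation repressors had 6 of 20 listed genes in both species and 0 of 11 rat introns under the same number, where a share of up to 25.9% lies within the interval. Over all shared genes used in the shuffle, that share was 25.2% with 13 to 20 introns and 25.3% with 21 or more, which also lies within it. Fmr1, which encodes the fragile X protein, had 97 mouse and 2 rat reads in different introns, and Caprin1 had 48 and 1082. Of the cytoplasmic polyadenylation factors, Cpeb2, Cpeb3 and Cpeb4 were in the mouse list only and Cpeb1 in the rat list only. Splicing factors had 11 of 25 listed genes in both species and 7 of 21 rat introns shared. Besides Rbm5, these included Rbfox1 with intron 12 (1072 reads in rat) and Celf2, an RNA-binding protein gene, with introns 5 and 8.

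Genes of small ribosomal subunit proteins were short, with a median mouse span of 2.52 kb, and were listed more in rat than in mouse. Of 26 listed genes, 12 were in both species, 14 in rat only and 0 in mouse only, with 660 mouse and 6048 rat reads. In the shared genes, 17 of 39 rat introns had the same number (43.6%, interval 29.3 to 59.0), and 17 of the 18 mouse introns. Rps16 had 12 mouse and 332 rat reads in intron 4, and Rps19 had 539 mouse and 113 rat reads at most. Respiratory chain subunits had 17 of 32 listed genes in both species, and 22 of 42 rat introns with the same number (52.4%, interval 37.7 to 66.6). The complex I genes Ndufa1 and Ndufa9 shared introns 1 and 2 and introns 4, 9 and 10, respectively. Atp5b, a subunit of ATP synthase, shared introns 5, 7 and 9, with 123 mouse and 229 rat reads at most. Beside these shares, that over all shared genes used in the shuffle was 62.7% in genes with up to 3 introns and 40.7% in genes with 4 to 7. Genes of the respiratory list were short as well, with a median mouse span of 10.4 kb.

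The list of Huntingtin, ataxin and spastic paraplegia genes also holds the reelin pathway genes Reln, Dab1, Lrp8 and Vldlr. Htt, Atl1, Reln and Atxn10 were put on it because the study describes them in these libraries, so that their listing is no independent count. In it, 8 of 10 listed ones were in both species, but 5 of 24 rat introns (20.8%, interval 9.24 to 40.5) had the same number. Besides Htt and Reln, the kinesin gene Kif1c shared intron 18 with 2 mouse and 16 rat reads. Spg11, a spastic paraplegia gene, listed 4 introns in each species and shared none, and Dab1, the adaptor of reelin signalling, had 90 mouse and 1018 rat reads in different introns. The plot of gene lists shows where the members of each list were found.

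**Figure D5:**
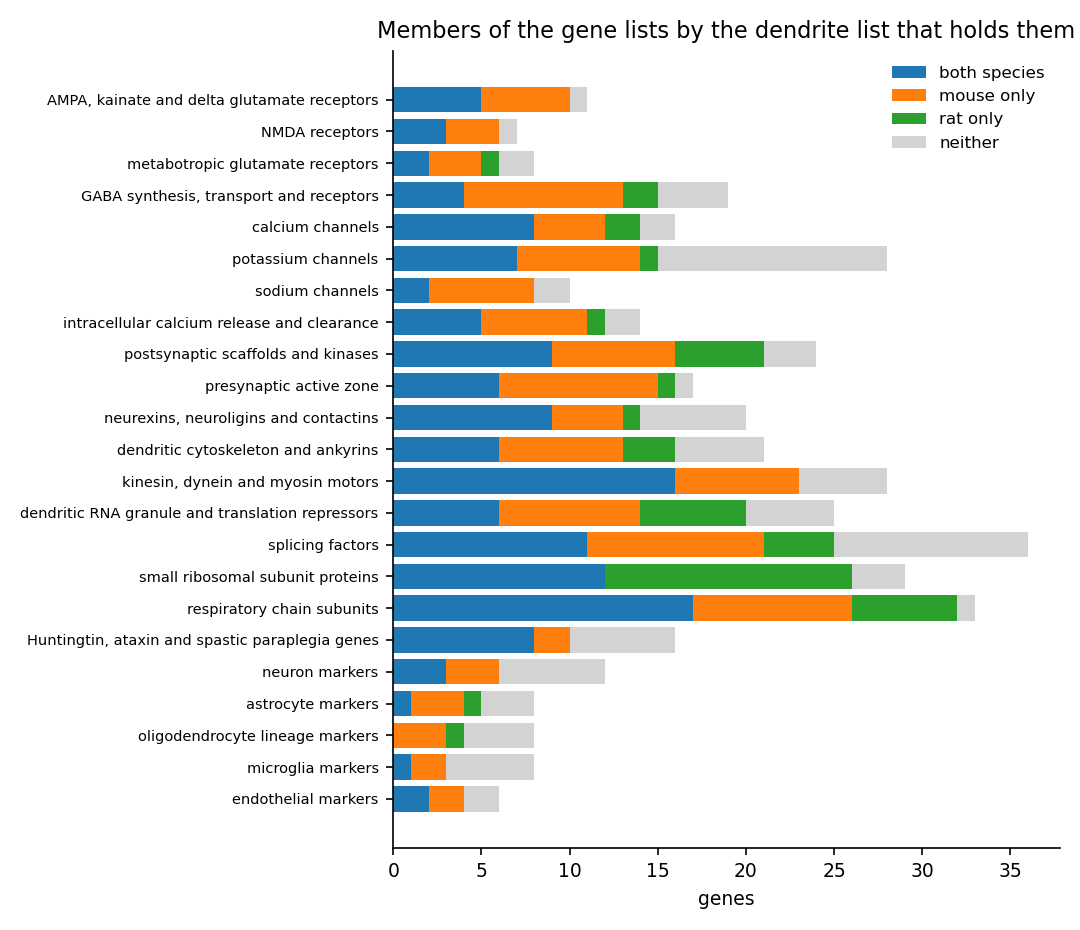
Number of genes of each gene list that were in both dendrite lists, in the mouse list only, in the rat list only or in neither. Motors have 16 genes in both and 0 in rat only, while small ribosomal subunit proteins have 12 in both and 14 in rat only. Over all listed genes, with older symbols joined, 27.8% are in both.

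Introns shared between the species in dendrites were also more often listed in somas. Of the 1471 shared introns, 540 (36.7%, interval 34.3 to 39.2) were in the mouse soma list, against 26.7% of the introns of the same genes listed in mouse dendrites only. In the rat soma list stood 454 (30.9%, interval 28.6 to 33.3), against 22.8% of those listed in rat dendrites only. Both soma lists held 247 of them (16.8%, interval 15.0 to 18.8), against 2.58% and 2.31% of the introns listed in a single dendrite list. Most shared introns of dendrites were therefore not in both soma lists. Introns listed in a single dendrite list are by definition missing from that of the other species. They were also seldom in its somas, with 6.37% of the mouse-only introns in rat somas and 9.10% of the rat-only introns in mouse somas. The classes themselves thus bear on the shares in both soma lists.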

How the data were processed

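The counts are raw reads per intron, which the authors summed over the pooled libraries of a condition and deposited without normalization. By their notes, reads were aligned to mm9 or rn4 with RUM, uniquely mapped intronic reads were kept and clustered into contigs. The count is repeated on each contig of an intron and was taken once per transcript and intron. Genes were matched by identical symbol, introns by symbol and number. The GENCODE annotation of NCBIM37 gave the introns of 8789 of 8953 mouse transcripts (98.2%). The rat genome and annotation were not used here, nor were the lists of BAT cells and cardiomyocytes.

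Python 3.11.15, pandas 2.3.3, numpy 2.4.6, scipy 1.17.1, pysam 0.24.0, samtools 1.23.1 and matplotlib 3.10.9 were used, and the calculations were tested on simulated data. Alternatives were read minimums of 4 and 32, contigs of at most 400 nt, other matching of symbols and numbers, a mouse list reduced to the rat size and other weights in the shuffle. Members and gene lists were chosen with earlier results of these data known.

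Named genes are 10 from the text, drawings and supplements of the study, the 10 shared introns with the highest smaller count, and the 3 most-read introns per list. They also include 5 genes each with the most shared numbers, with many introns and no shared number, and with the most introns in a single species. For the most shared numbers, Stag1, Etfa and Nvl were taken from 7 genes that tied at 4. In each gene list they are up to 4 shared members with the highest smaller count and, in lists of 8 or fewer, every member. Kif5c, Fmr1, Cpeb1, Cpeb2, Cpeb3, Cpeb4, Kif1c, Dab1, Lrp8, Vldlr, Camk2a, Srsf11 and the neuron markers that were not listed were named beside these after their values were seen. Some genes that the rule names, and contig sequences, are not reported here.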

Additional observations from a re-analysis of the deposited data

How the results depend on the processing

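No paired analysis was possible because each list pools its libraries, and for the same reason no run without a given library was made. The rat list is the less deep, the effect of its depth on the overlap was not tested, and intron lengths were known for mouse only. Of 30 alternatives over 5 results, 15 left the value within its interval or, for counts, within 1.5 times, and 15 moved it. Of the unmoved, that of symbols in some list of each species could not change the count by its construction. Counts of shared genes and introns fell with stricter settings, which leave fewer introns to compare, and for the other values the cause was not tested.

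With at least 32 reads in both lists, 1009 genes and 309 introns were shared, the ratio to the shuffle mean was 1.58, rho of reads was -0.0633 and contigs differed by -95.5 nt (mouse minus rat). With at least 4 reads, 962 introns were shared and rho of reads was 0.0801, and with contigs of at most 400 nt 789 introns were shared. With the mouse list reduced to its most-read introns, 1652 genes and 593 introns were shared, and with numbers equal or differing by 1, 2722 introns. The ratio was 1.13 with the highest listed number as the number of introns and 1.05 with introns weighted by length. It was 0.963 with rat numbers shifted by 1, a value lowered by introns shifted out of their gene. It was 1.25 with weights by length class, chosen after seeing the data. The difference of mean contig lengths was -16.5 nt. Joining older symbols, also chosen after seeing the data, gave 2851 genes and 1517 introns.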

Other observations

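Of the 1471 introns shared between the dendrites of both species, 247 were also in both soma lists. By the smallest of the 4 counts, the first was again intron 3 of Slc25a4, with 7737 mouse and 1218 rat soma reads. Intron 4 of Rexo2 had 1172 and 634 soma reads, and intron 6 of Cdc37l1 had 1461 and 352. Intron 4 of Bace1, which encodes the beta-secretase of the amyloid precursor, had 339 mouse and 1190 rat dendrite reads and 566 and 756 soma reads, and its intron 6 was in all 4 lists too. The amyloid precursor gene App had intron 6 in all 4, with 309 and 37 dendrite and 196 and 3522 soma reads.

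Genes of mitochondria and of the proteasome were among them. Intron 3 of Ndufa4, a subunit of the respiratory chain, had 684 and 202 dendrite and 382 and 243 soma reads. Intron 1 of Ndufa1 had 382 and 528 dendrite and 212 and 151 soma reads, and intron 3 of Psmb2, a proteasome subunit gene, had 325 and 154 dendrite and 130 and 786 soma reads. Neuronal genes with an intron in all 4 lists included Stmn2 (intron 4), Syt1 (intron 4) and the NMDA receptor gene Grin1 (intron 8, with 2 reads in rat dendrites). These genes were picked from the list after their values were seen.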
